A study of Drosophila melanogaster with 4 samples.

Results

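Protein synthesis depends on a set of factors that load, move and release the ribosome, and their genes were followed here in *Drosophila* S2R+ cells with and without the intronic enhancer of *Notch*. The genes were those whose symbol starts with eIF (initiation), eEF (elongation) or eRF (release) in the dm6 annotation, outside chromosome 4, with at least 1 transcript in the quantification. The rule took 53 of the 13909 genes with a transcript in the files, and no measured level entered it. A single gene with such a symbol, *eIF4G1*, lies on chromosome 4 and was left out. S2R+ is a tetraploid, hemocyte-like line derived from late embryos. The wild-type group was S2R+ cells that carry no deletion, and the enhancer mutant group was a single clone in which CRISPR-Cas9 had removed the enhancer within *Notch*. Each group had 2 RNA-seq libraries of total RNA from cells in the same medium. The groups differed by the deletion and by the isolation of a clone. By the study's methods the mutant cells were also transfected and selected in puromycin, then expanded without it before cloning. No such steps are stated for the wild-type cells. The effects of these differences cannot be told apart. The sources speak of independent libraries but do not say that the libraries of a group came from separate cultures, so the p-values measure only the spread between these libraries, which may be technical.

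Translation starts when the small ribosomal subunit, carrying the initiator tRNA on eIF2, is brought to the capped mRNA by eIF3 and the eIF4 factors and scans to a start codon. eIF1, eIF1A and eIF5 control the choice of that codon, eIF2B recharges eIF2 with GTP, and eIF5B joins the large subunit. eEF1 then delivers each aminoacyl-tRNA, eEF2 moves the ribosome along, and eRF1 with eRF3 releases the finished protein. In dividing cells the mRNAs of these factors are among the abundant housekeeping transcripts, while several factors have second gene copies, some of which are known in flies for use in the testis.

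The 4 libraries held 16240543 to 29605002 estimated counts, with both mutant libraries deeper than both wild-type libraries. Levels below are given either in CPM, counts scaled to library size after TMM normalization, which compare libraries, or in TPM, which also correct for transcript length and compare genes. *Notch* itself was lower in the mutant, with 160 and 126 CPM in wild-type and 38.1 and 35.3 CPM in the mutant (log2 fold change -1.96, SE 0.13, adjusted p = 9.46e-07, edgeR quasi-likelihood F test, Benjamini-Hochberg adjusted). Of 10 hemocyte or S2R+ markers, whose summed level was 164 to 199 TPM, *srp* and *crq* were the highest in every library. Wild-type first, *srp* had 74.8, 61.7, 49.96 and 45.2 TPM and *crq* 73.5, 73.8, 124 and 113 TPM. On this scale they differed between the groups in opposite directions. Most genes were lower in the mutant on it (median log2 TPM ratio -0.44 over all tested genes), and the fall of *srp* was not told apart from that shift. *Hml*, *vkg*, *Col4a1* and *fz* were also lower in both mutant libraries in TPM. The last, listed because S2R+ cells express it, had 2.08 and 2.18 against 0.381 and 0.446 TPM. *Hml*, *Col4a1* and *fz* had fewer counts in both mutant libraries although these were deeper, with 166 and 140 against 53 and 55 for *fz*. *He* went the other way, from 0.462 and 0.192 to 2.14 and 1.57 TPM (4 and 1 against 31 and 16 counts). *Pxn* and *eater* overlapped between the groups, and *NimC1* was at or near 0. Markers of fat body and muscle summed to under 0.4 TPM in each library, and those of the male germline and of neurons are given beside the genes they touch. The somatic gonad marker *tj* had 0.191 and 0.126 TPM in wild-type and 0.435 and 0.327 TPM in the mutant (13 and 7 against 51 and 34 counts).

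Few of the translation factor genes were called between wild-type and enhancer mutant. Of the 46 factor genes with enough counts to be tested, 4 were called, meaning an adjusted p below 0.05 and a log2 fold change of at least 0.5 in either direction, which is 8.7%. The share over all 8182 tested genes was 27.9%. Of the 4, 1 rose, *eIF4B*, against a share of 12.6% called higher over all genes, and 3 fell, *eIF5B*, *eIF4G2* and *eEF1alpha2*, against 15.3% called lower. With the adjusted p alone, 11 of the 46 passed (23.9%), 7 higher and 4 lower, where 48.7% of all genes passed, 24.5% higher and 24.2% lower. Each of the 7 that passed the adjusted p without being called exceeded an adjusted p of 0.05 in at least 1 of the 4 fits with a library left out, with a highest value of 0.145. At an unadjusted p below 0.05, 17 of the 46 passed (37.0%), beside 55.5% of all genes. In bulk RNA, fewer cells of a type and less RNA per cell cannot be told apart.

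Most factor genes stayed near a fold change of 0. Their median log2 fold change was 0.02 and that of all tested genes was -0.0037, and the interquartile range was 0.30 log2 units for the factor genes and 0.64 for all genes. The fold change was below 0 for 22 of the 46 (47.8%) and for 50.3% of all genes. The 95% interval of the fold change lay wholly within 0.5 log2 units of no change for 31 factor genes (67.4%), and for 38.8% of all tested genes. Most factor genes are abundant, so the same counts were taken over the more abundant genes alone. Above a mean log2 CPM of 5, 3 of 41 factor genes were called (7.3%) beside 20.4% of all 4644 such genes, and the SD of the fold changes was 0.25 for the factor genes and 0.49 for all.

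**Figure D1:**
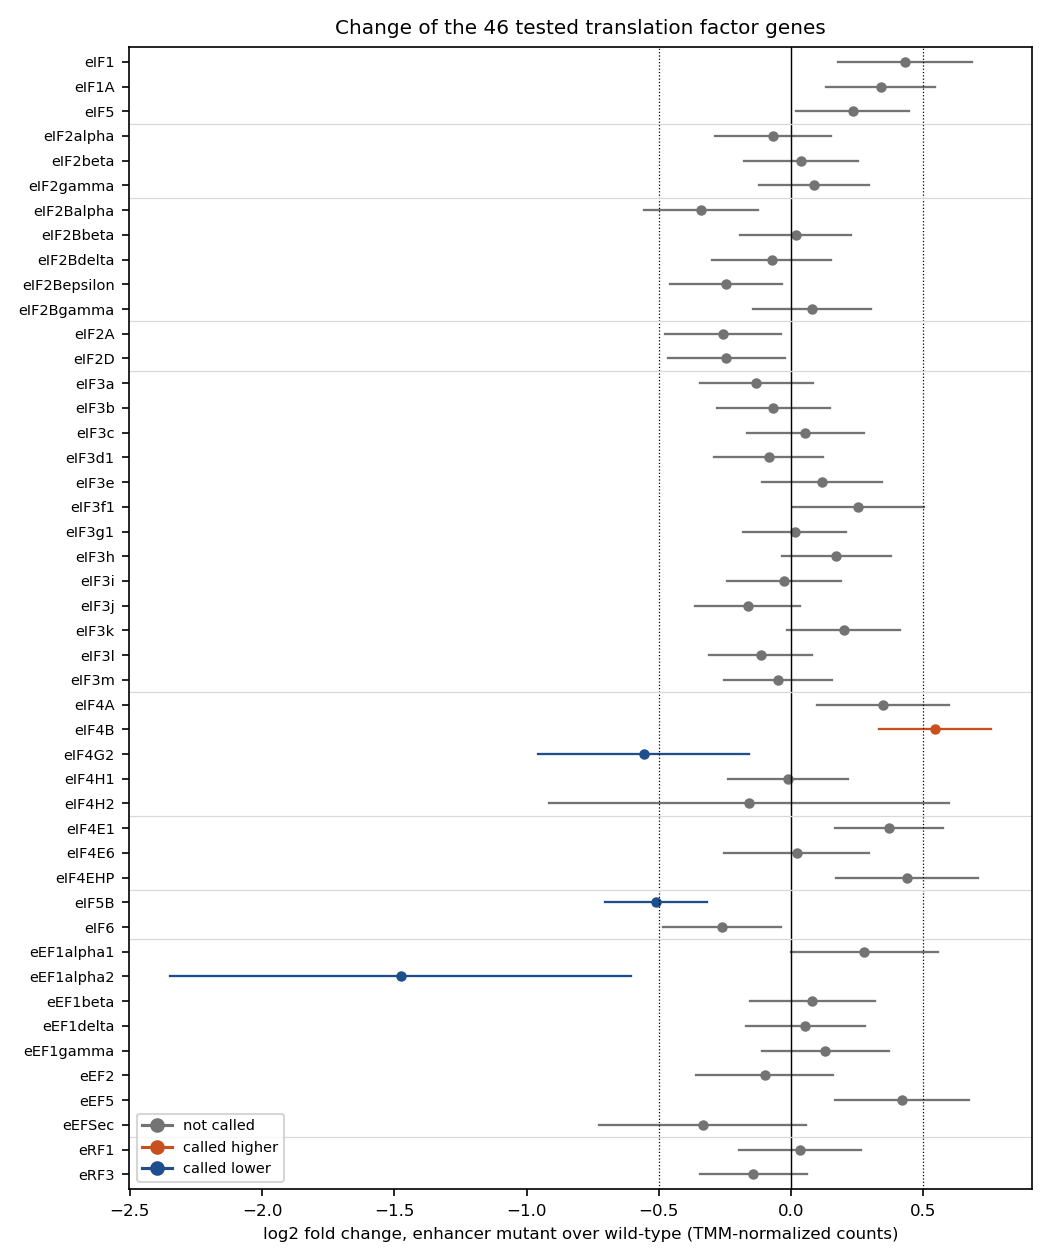
Log2 fold change of each of the 46 tested translation factor genes (enhancer mutant over wild-type, x axis), grouped by role, with its 95% interval from the quasi-likelihood fit. Dotted lines mark a change of 0.5 in either direction, and 4 genes pass both the fold and the adjusted p threshold, of which *eIF4B* is the one to the right.

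**Figure D2:**
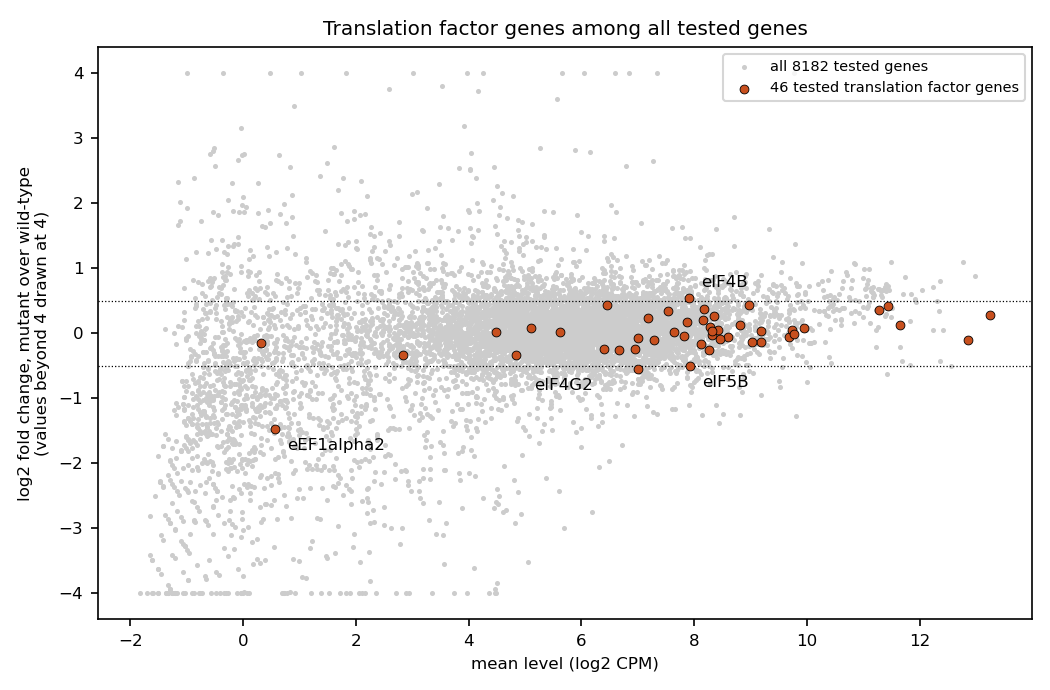
Mean level (log2 CPM, x axis) against log2 fold change (y axis) for all 8182 tested genes in grey and the 46 translation factor genes in orange. The factor genes lie mostly at high levels and close to 0, and the 4 called members are named.

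On the TPM scale most genes were shifted down in the mutant, with a median log2 TPM ratio of -0.44 over all tested genes. The factor genes moved with it, at a median of -0.42. Without overlap, the mutant was lower in 40 of the 46 (87.0%), as it was for 71.0% of all genes, and *eIF4B* was the only factor gene that was higher without overlap (11.1% of all genes). On the CPM scale, 16 factor genes lay below and 14 above without overlap, beside 37.9% and 37.7% of all genes. Fold changes below are from the CPM scale unless TPM is named.

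*eIF5B* (FBgn0026259), the GTPase that joins the ribosomal subunits, had the smallest adjusted p of the factor genes. Its levels were 284 and 285 CPM in wild-type and 198 and 201 CPM in the mutant, with an SD of 0.758 and 1.85 CPM (n = 2 each). The groups were thus far apart compared with the spread inside them. The log2 fold change was -0.51 (SE 0.088, adjusted p = 0.000891, edgeR quasi-likelihood F test, Benjamini-Hochberg adjusted), so that the level fell by 29.8%, which sits at the edge of the fold threshold. It came to -0.497 without wild-type replicate 2, to -0.488 without mutant replicate 1, to -0.494 with DESeq2 and to -0.469 with no filter on low counts, each under the threshold with an adjusted p still below 0.05. The gene spans 3L:3428658-3460977 on the minus strand.

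*eIF4B* (FBgn0020660), an RNA-binding cofactor of the helicase eIF4A, was the factor gene that rose. It had 207 and 183 CPM in wild-type and 286 and 282 CPM in the mutant. Both mutant libraries lay above both wild-type ones, and the mutant libraries differed from each other by less than the wild-type ones did. The log2 fold change was 0.54 (SE 0.096, adjusted p = 0.00104, edgeR quasi-likelihood F test, Benjamini-Hochberg adjusted). It fell to 0.47 without wild-type replicate 2 and to 0.35 when libraries were scaled by their sizes alone, both under the fold threshold. The gene is at 3L:27842669-27858271, minus strand.

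*eIF4G2* (FBgn0260634) encodes a paralog of the scaffold eIF4G that is known in flies for its role in male germ cells. Its values were 189 and 117 CPM in wild-type and 113 and 95.6 CPM in the mutant. The lower wild-type library nearly reached the higher mutant library, although the groups did not overlap. The log2 fold change of -0.56 (SE 0.18, adjusted p = 0.0259, edgeR quasi-likelihood F test, Benjamini-Hochberg adjusted) rested on single libraries. Without wild-type replicate 1 it was -0.17 (adjusted p = 0.264), without mutant replicate 1 it was -0.67 (adjusted p = 0.0959), without mutant replicate 2 it was -0.43 (adjusted p = 0.253), and DESeq2 gave an adjusted p of 0.235. The exons of *eIF4G2* at 3R:23808285-23819237 overlap those of *CG33111*, and reads in the shared part may belong to either gene. The 4 male germline markers summed to 7.39 and 8.35 TPM in wild-type and 0.804 and 0.565 TPM in the mutant, and nearly all of that sum was *bam*, with *aly* at 0 in every library and *can* at 0 in all but 1, where it had 1 count. Their part in the change of *eIF4G2* was not tested.

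*eEF1alpha2* (FBgn0000557) encodes the second form of the tRNA-delivering elongation factor. It was scarce, with 38 and 44 counts in wild-type and 29 and 11 counts in the mutant libraries, or 1.86, 2.51, 1.04 and 0.48 CPM. The groups did not overlap, and mutant replicate 2 had the lowest value. The log2 fold change was -1.48 (SE 0.39, adjusted p = 0.0104, edgeR quasi-likelihood F test, Benjamini-Hochberg adjusted), and without mutant replicate 2 it was -1.05 with an adjusted p of 0.110. Its sequence is close to that of *eEF1alpha1*, which had 4342 to 29262 times its TPM in the libraries, so the split of shared reads between the copies is uncertain. The neuron markers summed to 14.9 and 12.2 TPM in wild-type and 8.25 and 8.23 TPM in the mutant. Most genes were lower in the mutant on this scale, with a median log2 TPM ratio of -0.44 over all tested genes. The marker sum was mostly *elav*. Its raw counts, from libraries of unequal depth, overlapped between the groups (wild-type first, 1290, 949, 1274 and 1095). *Syt1* was at 6 and 9 counts in wild-type and at 0 in both mutant libraries. Whether the marker sum fell beyond the general shift was not tested, nor was its part in the result. The gene lies at 3R:31738468-31743306, plus strand.

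**Figure D3:**
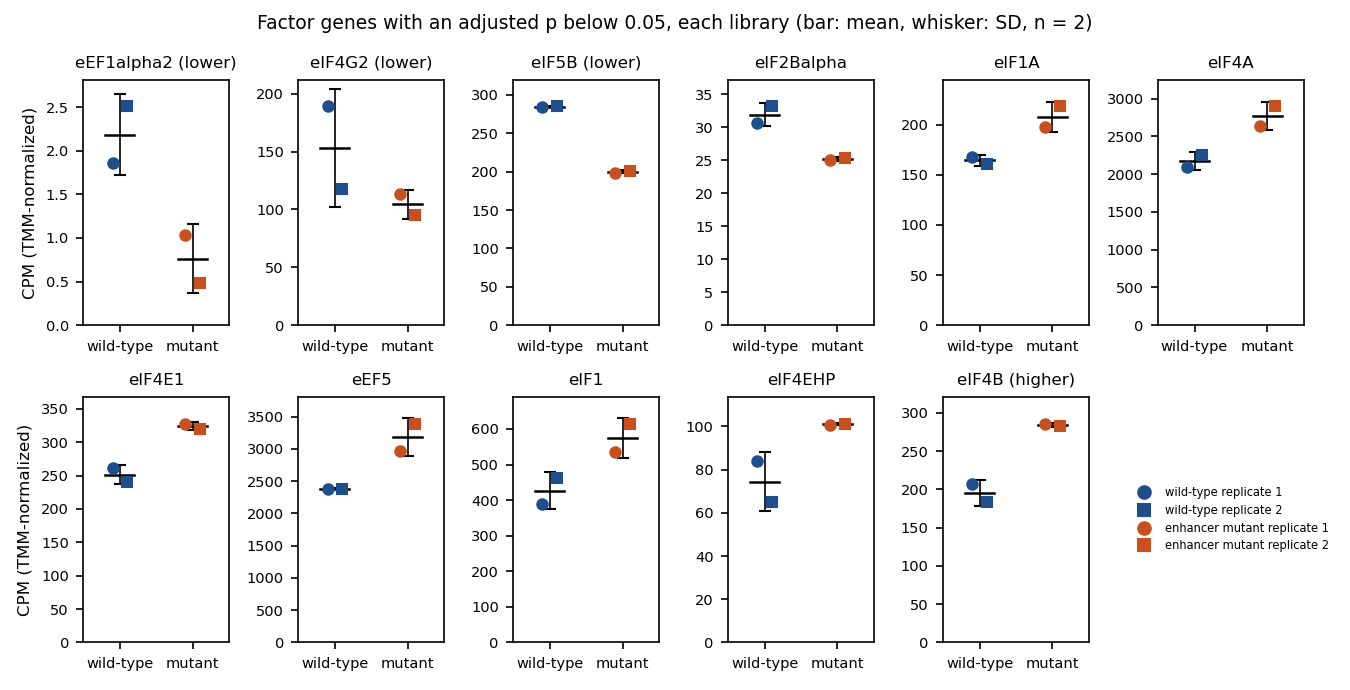
CPM in each library (y axis, from 0) for the 11 factor genes with an adjusted p below 0.05, with wild-type in blue and enhancer mutant in orange, the bar at the group mean and the whisker at 1 SD (n = 2). *eIF5B* and *eIF4B* show groups that are tight and apart, while the wild-type libraries of *eIF4G2* stand at 189 and 117 CPM.

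The levels of the factor genes ranged from 0 to 5054 TPM. On the TPM scale the median log2 ratio was -0.44 over all tested genes. There the 53 genes together made up 2.58% and 2.67% of all TPM in wild-type, against 2.27% and 2.18% in the mutant. The 8 elongation genes carried 63.6% to 66.4% of that sum in every library. At the top were *eEF1alpha1*, with 5054 and 4632 TPM in wild-type and 4631 and 4073 TPM in the mutant, and *eEF5*, with 4529, 4629, 4527 and 4753 TPM, whose ranges overlap. *eEF2* (1811 to 2906 TPM), *eEF1gamma* (1728 to 2270 TPM) and *eEF1beta* (1477 to 1941 TPM) followed with ranges that overlap, then *eIF4A* (1417 to 1615 TPM) and *eIF1* (897 to 1074 TPM). In CPM the direction was not the same. Of the 5 factor genes above a mean log2 CPM of 10, 4 were higher in the mutant without overlap and 1 was lower. Over all 133 genes in that range, 109 were higher and 14 lower without overlap.

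**Figure D4:**
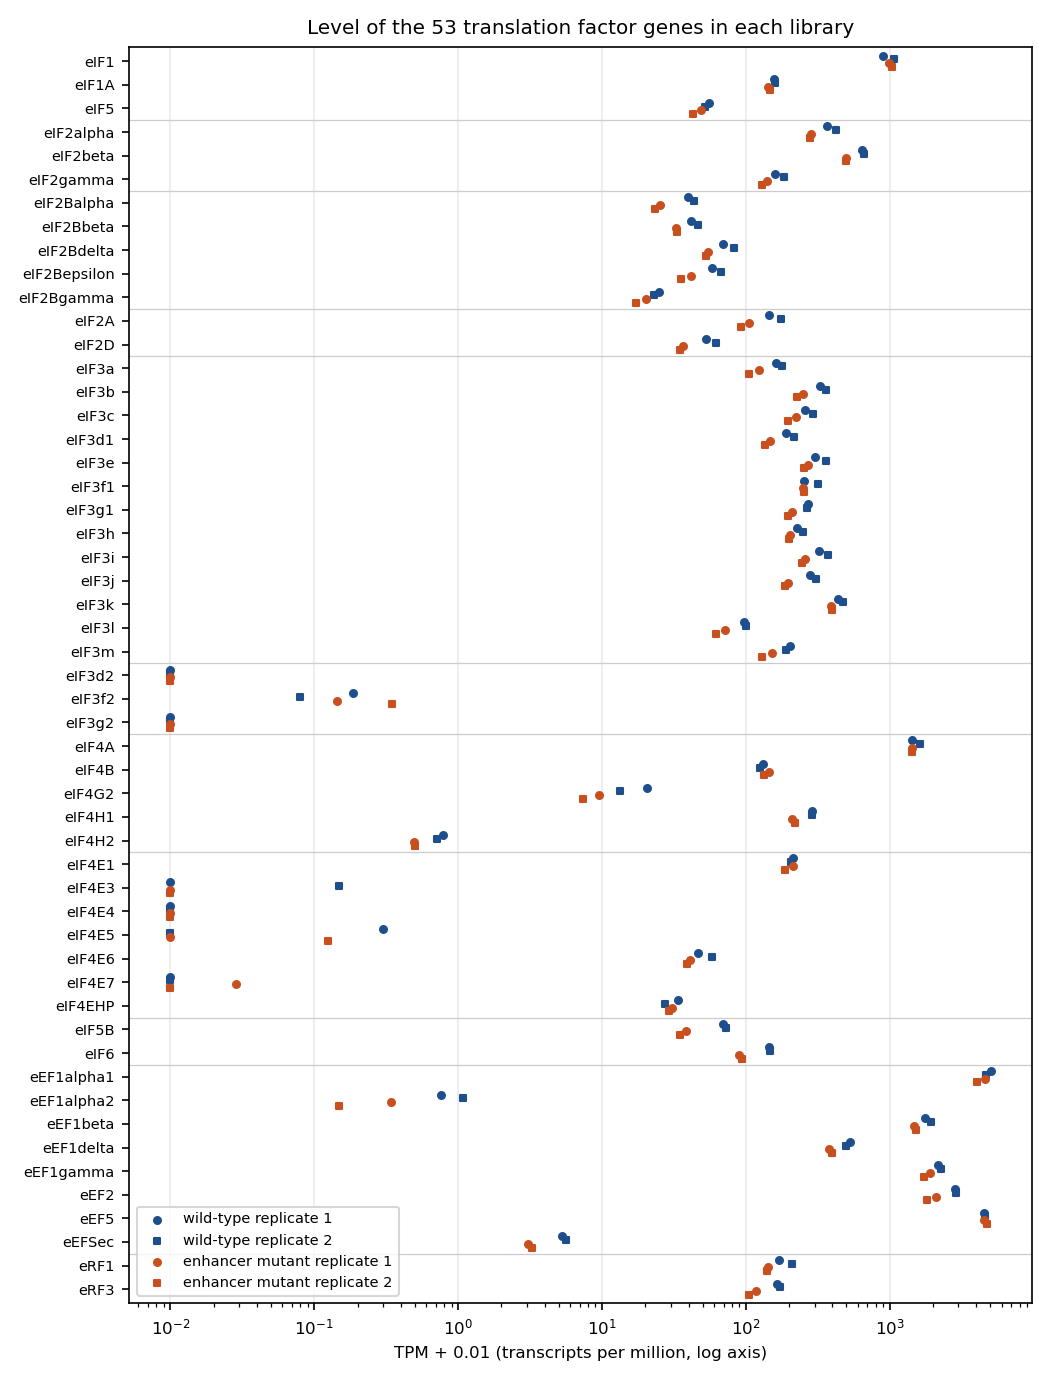
TPM plus 0.01 of all 53 translation factor genes (log x axis) in each of the 4 libraries, grouped by role with thin lines between groups. The elongation genes *eEF1alpha1* and *eEF5* stand highest, and *eIF3d2*, *eIF3g2* and *eIF4E4* sit at 0 in all libraries.

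The 3 genes of start codon choice were all higher in both mutant libraries on the CPM scale, as were 37.7% of all genes. On the TPM scale *eIF1* overlapped between the groups, and *eIF1A* and *eIF5* were lower in the mutant. *eIF1*, which keeps the scanning ribosome open until a start codon is met, was the most abundant of them, with 390 and 463 CPM in wild-type and 535 and 615 CPM in the mutant. Both mutant libraries lay above both wild-type ones. Its log2 fold change was 0.43 (adjusted p = 0.0102, edgeR quasi-likelihood F test, Benjamini-Hochberg adjusted), which is under the fold threshold. It was 0.57 without wild-type replicate 2 and 0.54 without mutant replicate 1, past that threshold, but 0.32 without wild-type replicate 1 and 0.34 (adjusted p = 0.126) without mutant replicate 2. *eIF1A*, its partner in scanning, had a log2 fold change of 0.34 (adjusted p = 0.0121, same test). *eIF5*, which triggers GTP hydrolysis by eIF2, had one of 0.23 (adjusted p = 0.0670, same test). By the quasi-likelihood test of edgeR 3 of these 3 had an unadjusted p below 0.05 but 0 were called, and DESeq2 also called 0. Over all tested genes 55.5% had an unadjusted p below 0.05, the share to set beside this count and those by role below.

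The eIF2 complex, which carries the initiator tRNA, showed no change that passed the test. *eIF2alpha*, the subunit that stress kinases phosphorylate, had 379, 419, 364 and 397 CPM, *eIF2beta* 576, 573, 559 and 621 CPM, and *eIF2gamma* 287, 317, 318 and 324 CPM, wild-type first. The order of the libraries differed between the subunits, and the fold changes of -0.07, 0.04 and 0.09 had 95% intervals that stayed within -0.29 and 0.30. In edgeR's quasi-likelihood test 0 of the 3 were called, with 0 at an unadjusted p below 0.05 and 0 by DESeq2. On the TPM scale *eIF2beta* was the highest subunit and *eIF2gamma* the lowest in every library, 3.53 to 4.04 times apart. The exons of all 3 overlap another gene (*rngo*, *ver* and *Su(var)3-9*), so that part of their counts may belong to the neighbour. The same holds for *eIF1A* and *eIF5*, for all 5 eIF2B genes, for *eIF2A* and *eIF2D*, and for 4 of the eIF3 genes (*eIF3e*, *eIF3h*, *eIF3i* and *eIF3k*).

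The exchange factor eIF2B, which returns eIF2 to its GTP-bound state, was expressed at a lower level than its substrate. The 5 subunits had 17.1 to 82.7 TPM, where the eIF2 subunits had 129 to 658 TPM. *eIF2Bdelta* was the highest in each library on the TPM scale, and its wild-type libraries held 122 and 141 CPM against 121 and 129 CPM in the mutant clone. *eIF2Balpha*, a regulatory subunit, had 30.6 and 33.2 CPM in wild-type and 25.0 and 25.4 CPM in the mutant. This log2 fold change of -0.34 had an adjusted p of 0.0150 in the edgeR quasi-likelihood F test with the Benjamini-Hochberg correction but stayed under the fold threshold. Of the 5, 0 were called by edgeR or DESeq2, and 2 had an unadjusted p below 0.05. *eIF2A* and *eIF2D*, which can bring tRNA to the ribosome without eIF2, had fold changes of -0.26 and -0.24, with 2 of 2 at an unadjusted p below 0.05 and 0 called by either tool. *eIF2A* was the more abundant, at 312 and 360 CPM in wild-type and 283 and 278 CPM in the mutant.

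eIF3, the largest initiation factor, had 13 tested subunit genes, and their fold changes ran from -0.16 (*eIF3j*) to 0.25 (*eIF3f1*). In edgeR's quasi-likelihood test 0 of the 13 were called, 1 had an unadjusted p below 0.05 (*eIF3f1*, adjusted p = 0.0823), and DESeq2 called 0. The 95% interval lay within 0.5 log2 units of no change for 12 of the 13. *eIF3k*, the most abundant on the TPM scale, had 259 and 276 CPM in wild-type and 291 and 324 CPM in the mutant. The mutant libraries were above, by a log2 fold change of 0.20 (adjusted p = 0.111). The subunits were within 4.55 to 6.38 times of each other in TPM in each library, with *eIF3l* always the lowest.

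Of the eIF3 subunits, 3 have a second gene copy, and S2R+ cells used one of each pair in all 4 libraries. *eIF3d1* had 347, 378, 338 and 345 CPM, *eIF3f1* 269, 325, 335 and 374 CPM, and *eIF3g1* 200, 196, 195 and 204 CPM. Their copies *eIF3d2* and *eIF3g2* had 0 counts in every library, and *eIF3f2* had 3, 1, 4 and 9 counts. A count of 0 allows up to 3 counts, or 0.101 to 0.185 CPM by library size alone, so *eIF3d2* and *eIF3g2* were not detectable at this depth rather than shown to be off. No fold change was taken for these 3 genes.

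The helicase eIF4A, which unwinds the 5′ end of the mRNA, was the most abundant initiation factor gene. It had 2095 and 2258 CPM in wild-type and 2638 and 2900 CPM in the mutant, without overlap. The log2 fold change of 0.35 had an adjusted p of 0.0255 in the edgeR quasi-likelihood F test with the Benjamini-Hochberg correction and did not reach the fold threshold. The ratio of *eIF4A* to *eIF4B* in TPM was 10.9 and 12.8 in the wild-type libraries against 9.79 and 10.6 in the mutant. *eIF4H1*, which like eIF4B stimulates the helicase in mammals, had 901, 856, 823 and 919 CPM and a fold change of -0.01. Its copy *eIF4H2* had 27, 20, 29 and 27 counts, or 1.32, 1.14, 1.04 and 1.18 CPM, with a log2 fold change of -0.16 whose 95% interval, from -0.92 to 0.60, was too wide to exclude a change past the threshold in either direction.

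The cap-binding eIF4E family has 7 genes under the rule, and 3 were expressed at testable levels. *eIF4E1*, the general cap-binding protein, had 261 and 241 CPM in wild-type and 328 and 320 CPM in the mutant, for a log2 fold change of 0.37 (adjusted p = 0.00739, edgeR quasi-likelihood F test, Benjamini-Hochberg adjusted). *eIF4EHP*, which binds the cap without eIF4G and represses translation, had 84.1 and 64.9 CPM in wild-type and 101 and 101 CPM in the mutant, for a log2 fold change of 0.44 (adjusted p = 0.0126). The mutant libraries lay above for both, and for *eIF4EHP* the change was 0.64 without wild-type replicate 1 but 0.28 (adjusted p = 0.0516) without wild-type replicate 2, and its adjusted p was 0.0865 and 0.0976 without either mutant library. The exons of *eIF4EHP* overlap those of *Syx1A*. *eIF4E6* had 19.7, 24.6, 21.9 and 22.9 CPM with overlapping groups (0.02). Of the 3, 2 had an unadjusted p below 0.05 and 0 were called by edgeR or DESeq2. The ratio of *eIF4E1* to *eIF4EHP* was 6.26 and 7.48 in the wild-type libraries against 6.90 and 6.40 in the mutant on the TPM scale.

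The other 4 cap-binding genes were at or near 0. *eIF4E4* had 0 counts in every library, *eIF4E3* had 2 counts in wild-type replicate 2 alone, *eIF4E7* had 1 count in mutant replicate 1 alone, and *eIF4E5* had 5 counts in wild-type replicate 1 and 3 in mutant replicate 2. Relatives of this family, *eIF4E3* among them, are known in flies for their use in the testis, and the levels here do not tell the groups apart.

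*eIF6*, which keeps the large subunit free until it is needed and so acts against joining, stands beside *eIF5B* in the joining step. It was the more abundant of the pair on the TPM scale, with 145 and 148 TPM in wild-type and 90.1 and 93.6 TPM in the mutant. In CPM these were 110, 111, 86.4 and 98.6, a log2 fold change of -0.26 (adjusted p = 0.0517, edgeR quasi-likelihood F test, Benjamini-Hochberg adjusted), which missed the threshold. The ratio of *eIF6* to *eIF5B* in TPM was 2.09 and 2.03 in the wild-type libraries against 2.37 and 2.68 in the mutant.

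Among the elongation genes, *eEF1alpha2* was the one called. *eEF1alpha1*, the main carrier of aminoacyl-tRNA, had 9332 and 8184 CPM in wild-type and 10778 and 10440 CPM in the mutant, with a log2 fold change of 0.28 (adjusted p = 0.0909, edgeR quasi-likelihood F test, Benjamini-Hochberg adjusted). *eEF2*, the translocase, had 7808 and 7629 CPM in wild-type and 7397 and 7012 CPM in the mutant, with a log2 fold change of -0.10 (adjusted p = 0.509). The groups did not overlap for either gene, in opposite directions, and neither difference passed the test. The ratio of *eEF1alpha1* to *eEF2* on the TPM scale was 1.79 and 1.59 in the wild-type libraries against 2.19 and 2.25 in the mutant, and this ratio, of one pair among 13 that were computed, was not tested.

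The subunits of the complex that recharges eEF1alpha with GTP had fold changes near 0. *eEF1beta* had 916, 999, 951 and 1075 CPM, *eEF1delta* 349, 323, 326 and 372 CPM, and *eEF1gamma* 3032, 3082, 3333 and 3356 CPM. The log2 fold changes were 0.08, 0.05 and 0.13, and *eEF1gamma* was 1.13 to 1.28 times *eEF1beta* in TPM in every library. *eEF5*, the gene of the hypusinated factor eIF5A that helps the ribosome past difficult peptide bonds, had 2385 and 2375 CPM in wild-type and 2974 and 3394 CPM in the mutant. This log2 fold change of 0.42 (adjusted p = 0.0117, same test) was under the fold threshold. It was 0.53 without mutant replicate 1 and 0.33 (adjusted p = 0.0862) without mutant replicate 2. *eEFSec*, which delivers selenocysteine, was low at 7.77 and 8.05 CPM in wild-type and 5.80 and 6.76 CPM in the mutant (-0.33, adjusted p = 0.140).

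The most abundant genes of the whole transcriptome were often higher in the mutant. Above a mean log2 CPM of 10 there were 133 genes, of which 47.4% were called higher, and their median log2 fold change was 0.49. The 5 factor genes in that range, *eEF1alpha1*, *eEF2*, *eEF5*, *eEF1gamma* and *eIF4A*, had a median of 0.28. The fold changes of these 5 ran from -0.10 to 0.42, and the difference from the other abundant genes was not tested.

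The release factors did not pass the test. *eRF1*, which reads the stop codon, had 290 and 341 CPM in wild-type and 312 and 333 CPM in the mutant (log2 fold change 0.03). *eRF3*, its GTPase partner, had 548 and 554 CPM in wild-type and 500.5 and 497.6 CPM in the mutant (log2 fold change -0.14, adjusted p = 0.222, edgeR quasi-likelihood F test, Benjamini-Hochberg adjusted). The tool called 0 of the 2, with 0 at an unadjusted p below 0.05 and 0 by DESeq2. Their TPM levels were within 1.05 to 1.32 times of each other in every library. The exons of *eRF1* overlap *CG5618* and those of *eRF3* overlap *SC35*.

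The mix of annotated transcripts within factor genes was also compared, using the share of a gene's TPM that Salmon assigned to each transcript. These shares are estimates with no replicate test. Only genes with several annotated transcripts and at least 50 counts in every library were taken. In 29 factor genes, 60 transcripts had a share of at least 5%, and for 33 of them (55.0%) the mutant and wild-type shares did not overlap, beside 51.6% over all genes. Groups without overlap and a mean difference of at least 10 percentage points were seen for 5 of the 60 transcripts (8.33%). Over all genes this held for 12.9% of transcripts.

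Those 5 transcripts were in *eEF1delta*, *eEF1gamma* and *eIF2Bdelta*. *eEF1delta* has 2 transcripts that differ in coding length, and the shorter one (FBtr0079951, 229 codons) had 49.99% and 47.4% of the gene in wild-type, against 32.6% and 33.5% in the mutant. The longer one (FBtr0079952, 256 codons) took the rest, from 50.01% and 52.6% to 67.4% and 66.6%, while the level of the gene as a whole did not pass the test. In *eEF1gamma* the transcript FBtr0085392 went from 60.3% and 47.7% in wild-type to 41.2% and 40.0% in the mutant, and FBtr0085393, with the same coding sequence of 431 codons and another 5′ end, from 30.3% and 46.4% to 52.3% and 54.9%. The wild-type libraries of *eEF1gamma* differed from each other by about as much as the groups did. In *eIF2Bdelta* the transcript FBtr0072014, with 626 codons where the others have 576, went from 10.9% and 12.3% to 19.9% and 27.4%. In *eIF5B*, which fell as a gene, both main transcripts (FBtr0073144 with 1144 codons and FBtr0309838 with 1108 codons) had lower TPM in both mutant libraries, 43.8 and 52.4 against 23.8 and 19.4 TPM for the first and 25.0 and 20.2 against 14.1 and 15.4 TPM for the second. In *eIF4A* the transcript FBtr0079175 was listed at 0 in both wild-type libraries and at 5.33% and 6.98% of the gene in the mutant.

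**Figure D5:**
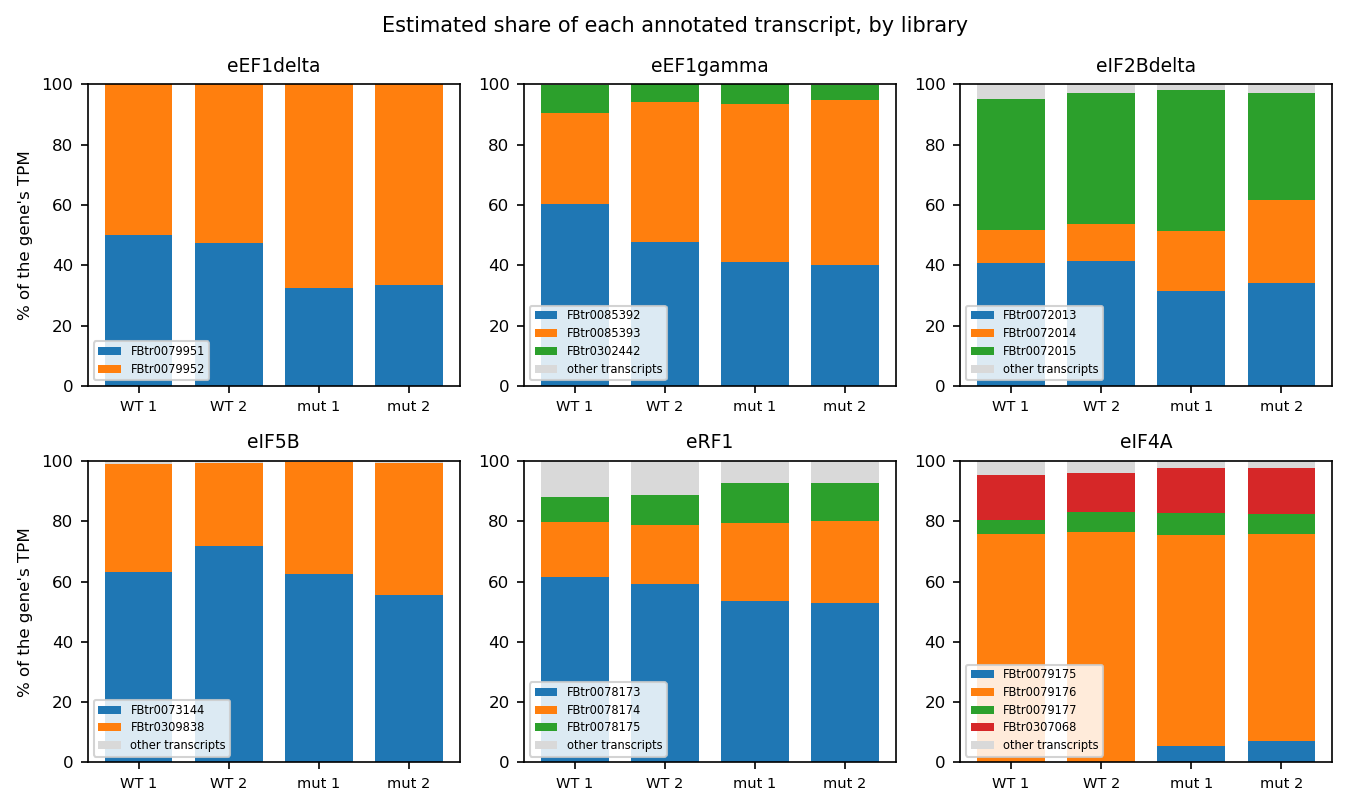
Share of each gene's TPM (%, y axis, from 0 to 100) assigned to its annotated transcripts in the 4 libraries (WT wild-type, mut enhancer mutant) for *eEF1delta*, *eEF1gamma*, *eIF2Bdelta*, *eIF5B*, *eRF1* and *eIF4A*. In *eEF1delta* the shorter transcript falls from about 48.7% to 33.0% of the gene on average.

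Genes outside the rule that bind, modify or work beside the factors were described with them, *eIF4G1* of chromosome 4 included. A list of 31 binding partners, kinases, modifying enzymes and rescue factors held 29 tested genes, of which 10 were called (34.5%), 7 higher and 3 lower, where 27.9% of all genes were called, 12.6% higher and 15.3% lower. The median log2 fold change of the 29 was 0.14. The largest change was in *Thor*, the 4E-BP that binds eIF4E1 and keeps it from the scaffold, with 6.74 and 5.54 CPM in wild-type and 35.2 and 37.3 CPM in the mutant (log2 fold change 2.55, SE 0.13, adjusted p = 1.71e-07, edgeR quasi-likelihood F test, Benjamini-Hochberg adjusted). *4E-T*, another eIF4E-binding protein, on chromosome 4, rose by 0.79, and *Paip2*, which binds the poly(A)-binding protein and takes it from the mRNA, rose by 0.96. The wild-type libraries were spread for both genes. *Paip2* had 79.3 and 44.7 CPM in wild-type and 123 and 119 CPM in the mutant, and *4E-T* had 70.5, 49.8, 105 and 103 CPM. *eIF4G1*, the main scaffold on chromosome 4, had 796 and 614 CPM in wild-type and 995 and 914 CPM in the mutant, for a log2 fold change of 0.44 (adjusted p = 0.0162) that was under the fold threshold.

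The kinases moved in both directions. *mTor* and *raptor*, the kinase and the scaffold of the complex that phosphorylates 4E-BP, had log2 fold changes of -0.53 and -0.64, while *S6k*, a substrate of that complex, rose by 0.54. *PEK*, the kinase that phosphorylates eIF2alpha when the endoplasmic reticulum is stressed, had 186 and 171 CPM in wild-type and 118 and 108 CPM in the mutant (-0.66). Another eIF2alpha kinase on the list, *Gcn2*, had a log2 fold change of -0.12, and the phosphatase subunit *PPP1R15* had one of 0.34. Neither was called, and both were named after their values were seen. *crc*, the fly ATF4 whose mRNA is translated better when eIF2alpha is phosphorylated, had 610 and 629 CPM in wild-type and 929 and 962 CPM in the mutant (0.61). *Dph1*, which starts the synthesis of the diphthamide residue on eEF2, rose from 39.3 and 44.1 CPM to 154 and 151 CPM (log2 fold change 1.87). The other diphthamide genes on the list, *Dph2* and *Dph5*, were named after their values were seen, and had log2 fold changes of 0.02 and -0.28. *MCTS1*, which works with DENR in reinitiation, rose by 0.62 (65.2 and 69.0 CPM against 103 and 104 CPM), and *DENR*, also named after its values were seen, had 41.2, 45.5, 41.5 and 45.3 CPM.

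The factor genes are spread over the major chromosome arms, and the called ones lay on 3L (*eIF5B* and *eIF4B*, 22.2% of 9 tested, where 25.8% of all genes of the arm were called) and 3R (*eIF4G2* and *eEF1alpha2*, 15.4% of 13, where 27.6% were). On the X, where *Notch* lies at 3134870-3172221, 6 factor genes were tested, and the nearest were *eIF2Bbeta* at 0.429 Mb and *eIF3g1* at 0.525 Mb from it. *eIF2Bbeta* had 47.3 and 50.9 CPM in wild-type and 47.1 and 52.3 CPM in the mutant, for a log2 fold change of 0.02, and *eIF3g1* had one of 0.01. The 95% intervals, from -0.19 to 0.23 and from -0.18 to 0.21, lay within the fold threshold.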

How the data were processed

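RNA-seq of 2 wild-type and 2 enhancer mutant libraries (paired-end, 150 bp) was used. The authors quantified each library with Salmon 0.10.2 (the submitters' processing notes) against dm6 transcripts with its GC bias correction and deposited, per transcript, estimated counts and TPM values. Deposited transcript lengths and effective lengths, in bases, were used for the length offset alone. The annotation release of their index was not given in the sources used here.

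Transcripts were assigned to genes by identifier with the Ensembl annotation of BDGP assembly 6.54 (release 115, dm6 coordinates). Of 30070 transcripts, 29850 matched, and the rest held 0.230% to 0.292% of the counts. Counts were summed per gene and rounded. The main test was edgeR 4.0.16 (glmQLFit and glmQLFTest after filterByExpr and TMM, R 4.3.3), with Benjamini-Hochberg adjustment over all 8182 tested genes. Genes were called at an adjusted p below 0.05 and a log2 fold change of 0.5 or more in size, the thresholds of the study's methods with its fold threshold read as log2. The study used DESeq2, which served as an alternative (1.42.0). Standard errors were taken from the F statistic. The script was tested on simulated data. Depth was 19410313, 16240543, 29605002 and 24880286 estimated counts, and limits based on 3 counts cover counting error only. Replicates differed by more than sampling noise (chi-square per degree of freedom 31.5 and 15.8), so no library was a copy of another.

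Genes named with values were every called member, the families with paralogs, the most abundant member of each role and called partner genes; other members were named after their values were seen. The factor genes, the lists of partners and markers and the roles were chosen with earlier results of these data known. Alternatives were DESeq2, other scalings, other count filters, an effective length offset, a replicate block, other thresholds and each library left out.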

Additional observations from a re-analysis of the deposited data

How the results depend on the processing

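At the same thresholds the alternatives called 2 to 5 factor genes, of which 2 to 4 were among the 4 reported, beside 1773 to 2544 genes genome-wide. The genome-wide count was 2285 as reported, 3984 with the adjusted p alone and 1773 to 2329 with a library left out. Factor genes called higher numbered 1 as reported, 0 with library sizes alone or a 1.5-fold threshold, 7 with the adjusted p alone and 1 to 3 with a library left out. Those called lower numbered 3 as reported, 1 with DESeq2 or a 1.5-fold threshold, 5 with library sizes alone and 1 to 2 with a library left out. Partner genes called numbered 10 as reported and 18 with the adjusted p alone. With library sizes alone the share of genome-wide calls that were higher was 22.0% in place of 45.1%, because the median of all genes shifted to -0.20. The effects of transfection, puromycin selection, the clone and the culture behind it cannot be told apart from that of the deletion. The 2 libraries a group limit what small changes can be seen.

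The median log2 fold change of the factor genes was close to 0 and changed sign with the setting. It was 0.02 as reported, -0.02 with upper quartile factors, -0.18 with library sizes alone, -0.0076 with at least 10 counts in every library, 0.057 with no filter on low counts and -0.030 to 0.051 with a library left out. The sign of uncalled genes near 0 also changed. With library sizes alone the log2 fold changes became -0.16 for *eIF2beta*, -0.11 for *eIF2gamma*, -0.18 for *eIF2Bbeta*, -0.12 for *eIF2Bgamma*, -0.14 for *eIF3c*, -0.080 for *eIF3e*, -0.18 for *eIF3g1*, -0.025 for *eIF3h*, -0.18 for *eIF4E6*, -0.12 for *eEF1beta*, -0.14 for *eEF1delta*, -0.066 for *eEF1gamma* and -0.16 for *eRF1*. With upper quartile factors they became -0.016 for *eIF2Bbeta*, -0.020 for *eIF3g1*, -0.013 for *eIF4E6* and -3e-04 for *eRF1*, and with at least 10 counts in every library -0.0057 for *eIF2Bbeta*, -0.0094 for *eIF3g1* and -0.0021 for *eIF4E6*. With no filter *eIF3i* was at 0.016 and *eIF4H1* at 0.03, and *eIF4H1* was at 0.0054 with DESeq2 and 0.023 with an effective length offset. Leaving out a library gave -0.14 to 0.0185 for *eIF2alpha*, -0.028 to 0.13 for *eIF2beta*, -0.047 to 0.11 for *eIF2Bbeta*, -0.17 to 0.045 for *eIF2Bdelta*, -0.0046 to 0.13 for *eIF3c*, -0.0075 to 0.060 for *eIF3g1*, -0.10 to 0.072 for *eIF3i*, -0.10 to 0.0185 for *eIF3m*, -0.082 to 0.080 for *eIF4H1*, -0.13 to 0.20 for *eIF4E6*, -0.032 to 0.16 for *eEF1delta* and -0.075 to 0.17 for *eRF1*.

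The libraries of both groups carry replicate numbers 1 and 2, and deviations of same-numbered libraries from their group means correlated at 0.168 when taken over all tested genes and at -0.018 for the factor genes. With 2 pairs, and no source saying that a number marks a shared culture or day, the libraries were not treated as paired. With the replicate as a block 2276 genes were called, 2256 of them also called without it, the 4 factor genes among them, and the median of the factor genes was 0.01. With the adjusted p alone, 19 factor genes passed with the block in place of 11, and 4524 of all genes in place of 3984.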
